A study of Homo sapiens with 12 samples.

Results

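FaDu AfaR cells, a population of the hypopharyngeal squamous cell carcinoma line FaDu made resistant to afatinib, were compared with FaDu parental cells across all genes. The libraries were chosen by their labels, FaDu with the treatment Afatinib Resistant against FaDu with the treatment Parental, which gave 4 of the 12 libraries of the series, with 2 biological replicates in each group. The series holds the same design in Cal27, a tongue squamous cell carcinoma line, and an erlotinib-resistant population (ErlR) of each line. By the methods of the study, the resistant population was selected by culture in stepwise increasing doses of afatinib. Resistant cells were kept under the drug and cultured without it for a day before experiments. The methods for RNA sequencing do not state the drug status at harvest. FaDu AfaR is 1 selected population, and its 2 libraries are replicates of that population rather than of the selection. All 4 libraries carry the genotype label WT and the same batch label.

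Afatinib binds irreversibly to the kinases of the ERBB family, the receptors EGFR, ERBB2 and ERBB4, and blocks signalling through RAS, RAF, MEK and ERK and through PI3K and AKT. Head and neck squamous carcinomas depend in part on EGFR, and cells that grow under ERBB inhibitors are known to use other receptor tyrosine kinases, altered feedback on ERK, changes of epithelial identity or drug efflux. The gene lists below were therefore ordered from the receptors and their ligands to downstream output, then to interferon response, epithelial identity, matrix, growth and metabolism.

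The 4 libraries held between 20156109 and 23399259 counts on genes, and ERCC spike-ins took from 5.64% to 5.82% of all counts. All 14 markers of squamous epithelium were tested, and KRT5 had from 77655 to 209347 counts in a library. Of 10 leukocyte markers, 5 were tested and LYZ was called lower, from 46 and 12 counts to 9 and 3. CD3E, CD3D and MS4A1 were at 0 in every library, PTPRC had 44 and 55 counts in parental cells and 76 and 89 in AfaR, and CD14 had 167 and 183 against 259 and 266. Of 10 fibroblast markers, 3 were tested and none was called. FAP was at 0 in every library, DCN and LUM had at most 4 counts in any, and COL1A1 had 58 and 80 counts in parental cells and 126 and 151 in AfaR. Of 8 endothelial markers, 4 were tested and none was called, but CDH5 had 28 and 69 counts in the parental libraries against 67 and 383 in AfaR, so AfaR replicate 2 stood apart. The part of these markers in the results was not tested. In bulk RNA, fewer cells of a type and less RNA per cell cannot be told apart.

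More genes rose than fell. Of 15092 genes tested, 964 were called higher in FaDu AfaR (6.39%) and 129 lower (0.855%), so that 88.2% of the called genes were higher. A gene was called at a Benjamini-Hochberg adjusted p under 0.05 in edgeR's quasi-likelihood test where its log2 fold change was also beyond 1 or -1. With no limit on the fold change the directions were closer, with 1598 genes higher (10.6%) and 1235 lower (8.18%). The median log2 fold change over all genes tested was -0.00071. Protein-coding genes made up 822 of the genes called higher and lncRNA genes 112, and among the genes called lower there were 101 and 14.

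**Figure D1:**
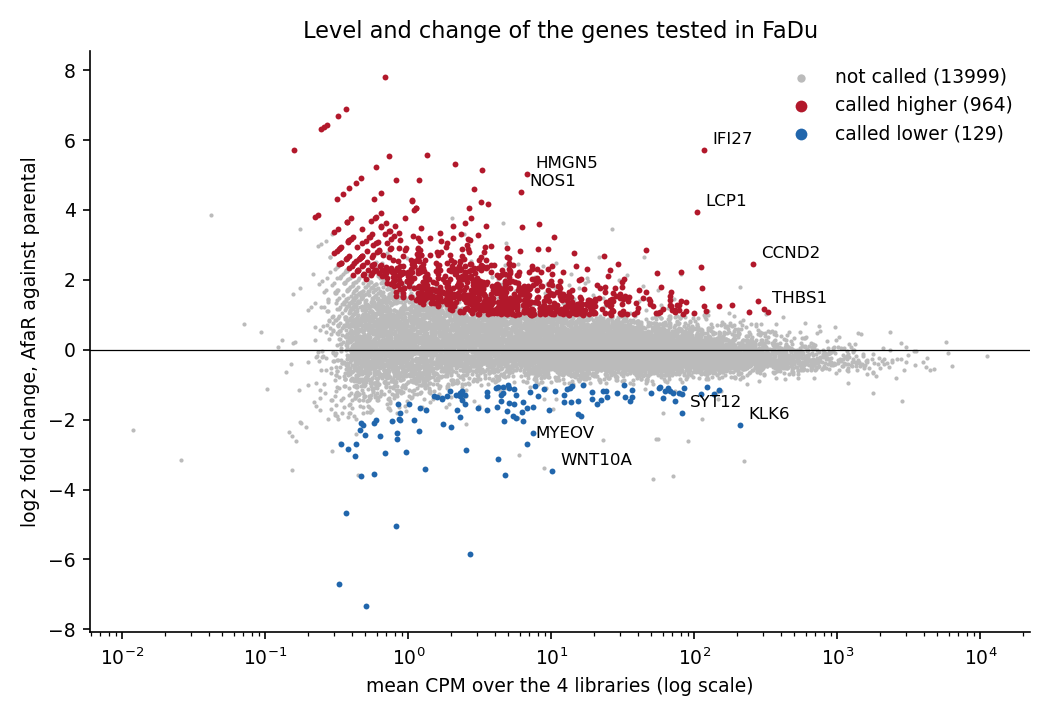
Each point is 1 of the 15092 genes tested, with its mean CPM (counts scaled to the library's total) over the 4 libraries on a log axis and its log2 fold change in FaDu AfaR against parental. Genes called higher (red, 964) lie mostly at low levels, and genes called lower (blue, 129) are fewer at every level.

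The rises were concentrated among genes of low level. Genes called higher had a median of 1.53 CPM in parental cells, and 352 of the 964 averaged at least 5 CPM over the 4 libraries. By level, 7.67% of the genes under 1 CPM, 15.9% of those from 1 to 5 CPM, 8.37% from 5 to 20 CPM, 1.68% from 20 to 100 CPM and 0.578% over 100 CPM were called higher. The median log2 fold change went from 0.34 at 1 to 5 CPM to -0.20 over 100 CPM. Level therefore bears on the lists below, both abundant ones and those of low level. For lists of low level, the share called over all genes is a low yardstick. Of the genes called higher, 345 had a log2 fold change over 2 and 91 over 3, and 80 had at most 3 counts in each parental library. AfaR replicate 2 was above AfaR replicate 1 in 68.3% of the genes called higher, against 49.3% of all genes tested. The count of 964 fell to 275 without parental replicate 1, to 598 without parental replicate 2 and to 414 without AfaR replicate 2, and was 942 without AfaR replicate 1. The 129 genes lower became 65 without parental replicate 1 and 84 without parental replicate 2.

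The largest rise among genes averaging at least 5 CPM was that of IFI27, an interferon-inducible mitochondrial protein gene (chr14:94104836-94116698 on GRCh38). IFI27 had 5.08 and 3.72 CPM in parental cells and 194 and 268 CPM in AfaR, which came to 5.71 on the log2 scale (standard error 0.281, adjusted p = 0.000125). HMGN5, which encodes a nucleosome-binding protein, went from 0.237 and 0.560 CPM to 12.2 and 13.8 CPM, a rise of 5.02 on the log2 scale (standard error 0.354, adjusted p = 6.1e-05). NOS1, the neuronal nitric oxide synthase gene, went from 0.665 and 0.356 CPM to 11.0 and 12.6 CPM, a rise of 4.50 on the log2 scale (standard error 0.361, adjusted p = 9.55e-05). In all of these, the parental libraries were low and the AfaR libraries were close to each other.

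LCP1, encoding the actin-bundling protein L-plastin of leukocytes and many carcinomas, was already present in parental cells at 10.3 and 15.5 CPM and reached 187 and 206 CPM (log2 fold change 3.93, standard error 0.373, adjusted p = 0.00481). CCND2, encoding the G1 cyclin D2, was abundant before and after, rising from 69.2 and 89.8 CPM to 377 and 487 CPM (log2 fold change 2.44, standard error 0.161, adjusted p = 6.49e-05). PXDN, a peroxidase of the basement membrane, rose from 8.22 and 14.1 CPM to 76.6 and 83.0 CPM, and ATP8B2, a phospholipid flippase gene, from 3.04 and 4.28 CPM to 20.2 and 29.6 CPM. MPV17L, PYCARD (the inflammasome adaptor ASC), MMP2 and LRIG1 also rose, by 3.61, 2.89, 2.87 and 2.83 on the log2 scale. All genes named so far kept their calls with each library left out in turn. C1R and LBH were less even, with 5.13 and 17.9 CPM and 8.42 and 29.4 CPM in the AfaR libraries. C1R, a complement protease gene, had a log2 fold change of 3.51 and LBH, a transcriptional cofactor gene, of 3.23, and both lost their calls without either parental library, where the values lay between 2.33 and 4.14 for C1R and between 2.06 and 3.86 for LBH over the fits with 1 library left out.

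**Figure D2:**
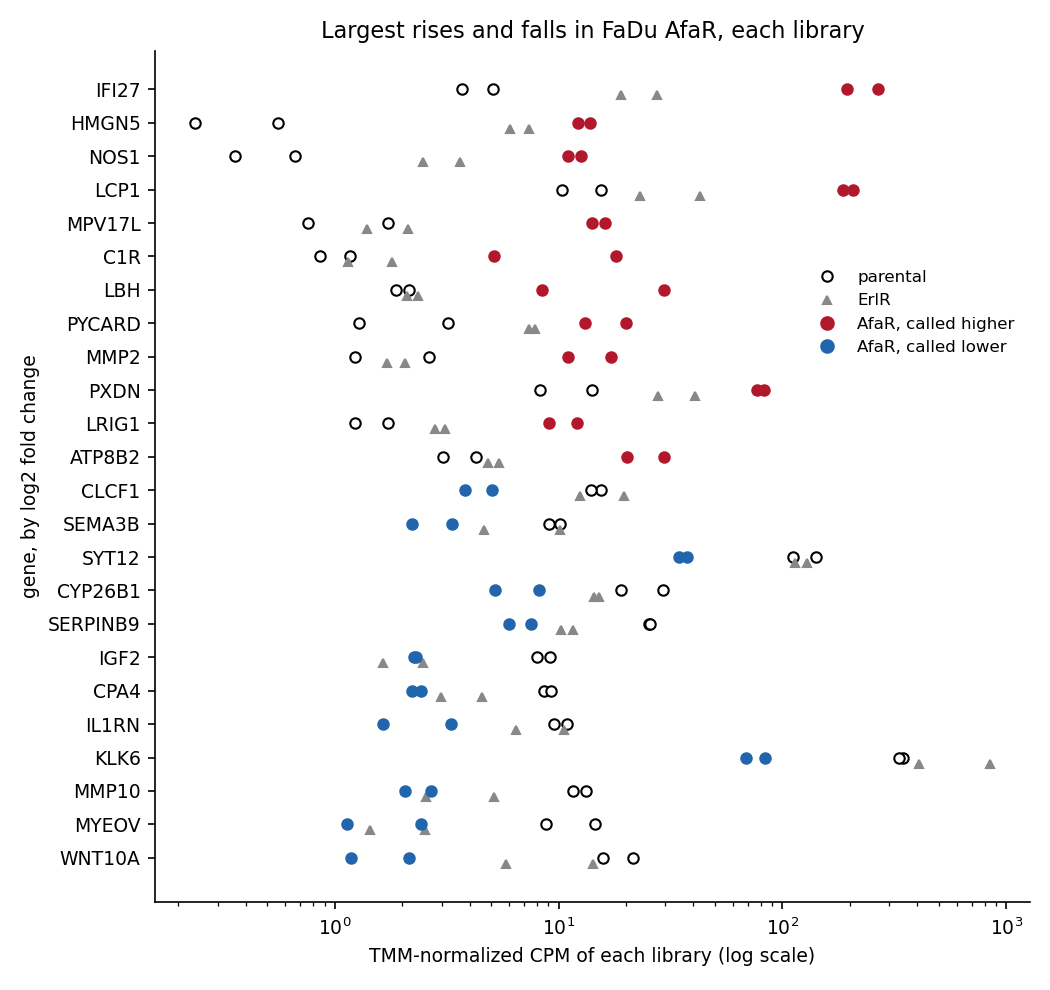
TMM-normalized CPM of each library (log axis) for the 12 largest rises and 12 largest falls among called genes averaging at least 5 CPM, with open circles for parental, filled circles for AfaR and triangles for ErlR, 2 libraries each. The AfaR and parental circles do not overlap in any of the 24 genes because that was a condition of the choice. The ErlR triangles lie beside parental for LBH and SYT12 and beside AfaR for IGF2 and MYEOV.

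The largest fall among called genes averaging at least 5 CPM was that of WNT10A, a WNT ligand, from 15.7 and 21.5 CPM to 1.18 and 2.14 CPM (log2 fold change -3.47, standard error 0.508, adjusted p = 0.00817). MYEOV, a gene beside CCND1 on chromosome 11, fell by 2.70 and the stromelysin gene MMP10 by 2.39 on the log2 scale. SYT12, a synaptotagmin gene, fell from 112 and 142 CPM to 34.7 and 37.6 CPM (log2 fold change -1.81, standard error 0.139, adjusted p = 7.64e-05). SERPINB9, encoding an inhibitor of granzyme B, fell from 25.2 and 25.6 CPM to 5.97 and 7.53 CPM (log2 fold change -1.91, standard error 0.183, adjusted p = 0.000226). IL1RN, the interleukin-1 receptor antagonist gene, CPA4, IGF2, CYP26B1 (a retinoic acid hydroxylase gene) and CLCF1 fell by 2.03, 1.94, 1.91, 1.84 and 1.73 on the log2 scale. All of the falls named so far kept their calls with each library left out. KLK6, a kallikrein protease gene, went from 346 and 331 CPM to 69.0 and 83.9 CPM, a log2 fold change of -2.15 with a standard error of 0.392 and an adjusted p of 0.0319. The groups of KLK6 lay far apart, but its call was lost in each of the 4 fits with 1 library left out, where the fold change stayed between -2.30 and -2.02, and SEMA3B (-1.79) lost its call without either parental library, with values between -2.12 and -1.53. The ErlR libraries of KLK6, which share in the estimate of its spread, were apart from each other at 408 and 845 CPM.

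**Figure D3:**
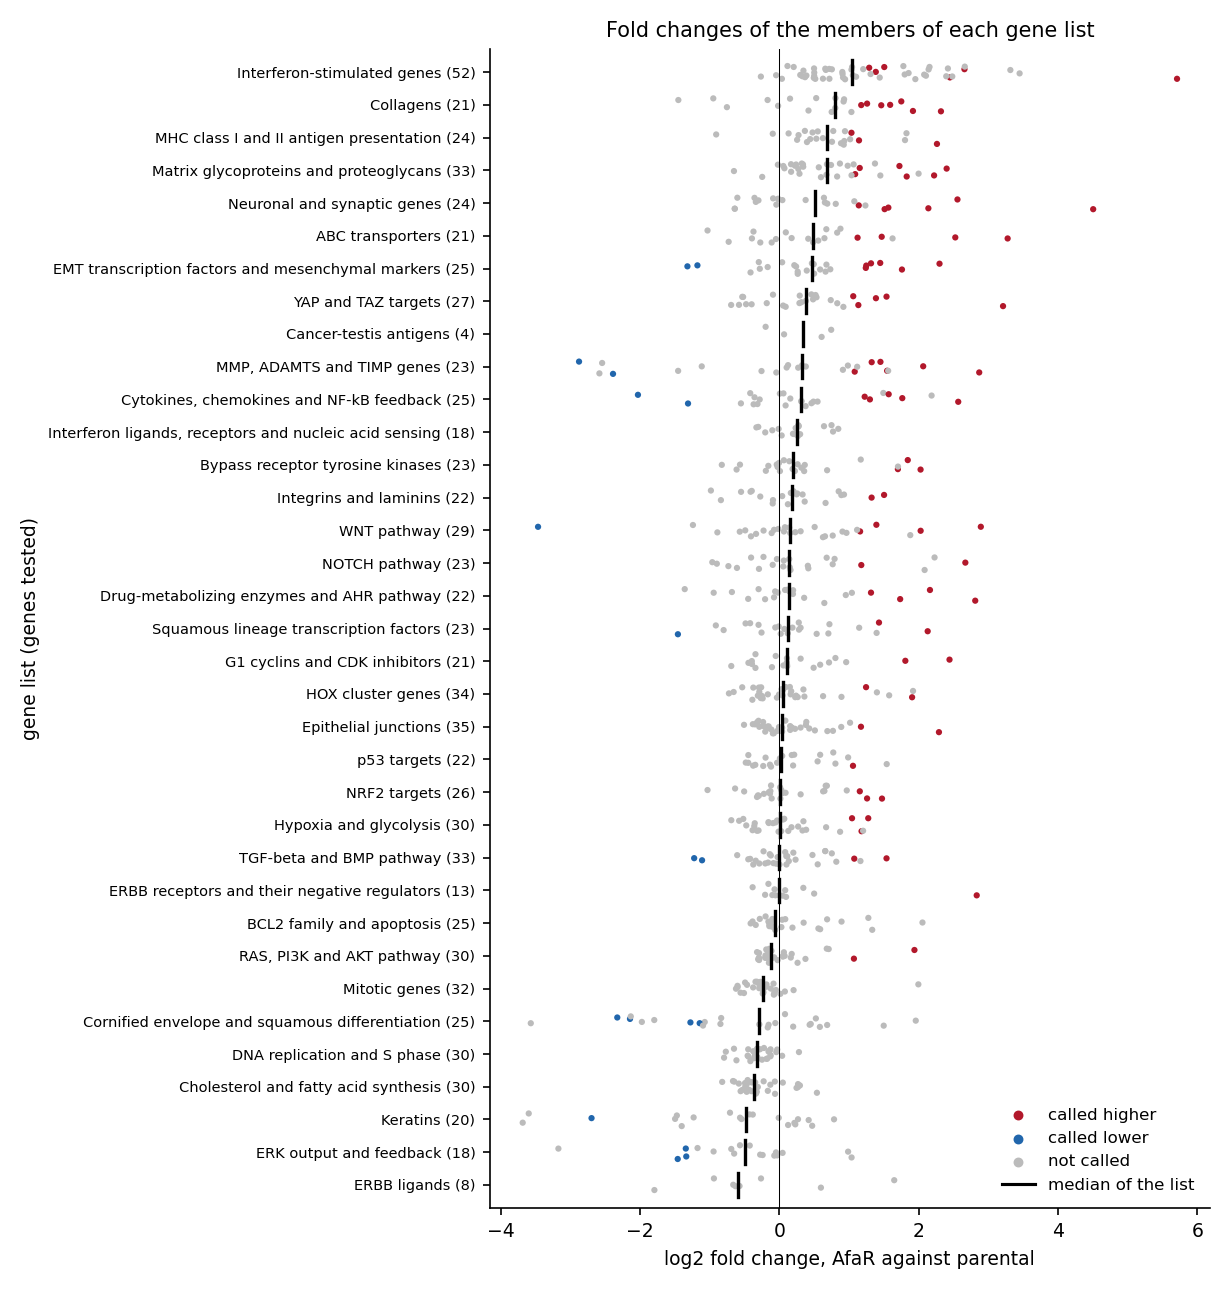
Log2 fold change of each tested member of the 35 gene lists (number tested in parentheses), with members called higher in red, called lower in blue and the list's median as a black bar. Medians run from -0.60 for the ERBB ligands to 1.04 for the interferon-stimulated genes, and most lists hold called members in 1 direction.

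EGFR and ERBB2, targets of afatinib, were not lower past the fold limit, and ERBB4 did not pass the filter on low counts. EGFR had 534 and 494 CPM in parental cells and 630 and 673 CPM in AfaR, a difference of 0.34 on the log2 scale (standard error 0.105, adjusted p = 0.0437), below the fold limit. Per kilobase of exon, EGFR was at 41.1 in parental and 52.1 in AfaR (RPKM), above ERBB2 at 9.11 and 8.67 and ERBB3 at 4.84 and 4.64, whose log2 fold changes were -0.07 (adjusted p = 0.681) and -0.06 (adjusted p = 0.881). Of 13 tested receptors and negative regulators, 1 was called, and it was higher (7.69%, near the 6.39% of all genes tested). That gene was LRIG1 (chr3:66378797-66501263), whose product binds ERBB receptors and MET and promotes their degradation. LRIG1 had 1.23 and 1.73 CPM in parental cells and 9.08 and 12.0 CPM in AfaR (log2 fold change 2.83, standard error 0.299, adjusted p = 0.000357), and it was called higher than in ErlR as well, by 1.84.

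Of 8 tested ERBB ligands, none was called by edgeR and DESeq2 on the 4 libraries called 1, and 6 had negative fold changes with a list median of -0.60. EREG, encoding epiregulin, had 99.7 and 87.4 CPM in parental cells and 30.8 and 23.1 CPM in AfaR (log2 fold change -1.80, adjusted p = 0.0986). NRG1, the neuregulin that binds ERBB3 and ERBB4, passed the test without the fold limit at -0.57 (adjusted p = 0.0244). The summed level of the list was 286 and 242 CPM in parental cells and 152 and 128 CPM in AfaR, so both AfaR libraries lay below both parental libraries.

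Among genes driven by ERK, the kinase at the end of the pathway below EGFR, those called were lower. Of 18 tested members of the list of ERK output and feedback, 3 were called lower (16.7%, against 0.855% of all genes tested) and none higher. Negative fold changes were seen in 15, and the median was -0.50. DUSP5, a nuclear ERK phosphatase and ERK target, went from 50.6 and 53.6 CPM to 18.7 and 19.1 CPM (log2 fold change -1.46, standard error 0.145, adjusted p = 0.000245). DUSP6, the cytoplasmic ERK phosphatase, went from 42.6 and 51.2 CPM to 18.7 and 18.2 CPM (log2 fold change -1.35, standard error 0.339, adjusted p = 0.0486). ETV4, an ETS factor, went from 31.9 and 38.7 CPM to 17.9 and 10.1 CPM (log2 fold change -1.34, standard error 0.306, adjusted p = 0.0287). In all of these, both AfaR libraries were below both parental libraries, as they were in all 129 genes called lower. CCND1, encoding cyclin D1, passed the test without the fold limit, from 2135 and 1875 CPM to 1319 and 1162 CPM (log2 fold change -0.69, adjusted p = 0.00734). EGR1, an immediate early gene, was uneven, with 121 and 682 CPM in parental cells and 58.2 and 30.9 CPM in AfaR, and was not called (adjusted p = 0.164). The list is only as firm as its members: DUSP5 kept its call with each library left out, DUSP6 in none of the 4 fits (values from -1.48 to -1.21) and ETV4 in 1 (values from -1.81 to -0.98).

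Among 23 tested receptor tyrosine kinases and ligands outside the ERBB family, 3 were called higher (13%, against 6.39% of all genes tested) and none lower. FGFR1 (chr8:38411138-38468834), a receptor for fibroblast growth factors, rose from 3.18 and 2.75 CPM to 13.2 and 11.0 CPM (log2 fold change 2.03, standard error 0.240, adjusted p = 0.000733). INSR, the insulin receptor gene, rose from 1.09 and 1.68 CPM to 4.75 and 5.19 CPM (log2 fold change 1.84), and ROR1, a WNT5A receptor gene, from 2.42 and 3.31 CPM to 10.7 and 7.92 CPM (log2 fold change 1.70). FGFR1 kept its call with each library left out. INSR and ROR1 lost theirs without parental replicate 1, with values of at least 1.55 and 1.46 over the 4 fits. MET and AXL, frequent bypass receptors, differed by 0.14 (adjusted p = 0.434) and 0.32 (adjusted p = 0.206). FGF2, a ligand of FGFR1, had 15.5 and 37.2 CPM in parental cells and 67.5 and 103 CPM in AfaR and was not called (log2 fold change 1.70, adjusted p = 0.215).

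FGFR1 was not alone in its stretch of the short arm of chromosome 8. Of 20 genes tested whose lower coordinate lies within 1500000 bases of that of FGFR1, 20 had positive fold changes and 19 were called higher. The 19 genes follow each other from ZNF703 to ADAM9 (chr8:37695751-39105144), with log2 fold changes from 1.23 to 3.17 and a median of 1.66. EIF4EBP1, encoding the translation repressor 4E-BP1, rose from 27.7 and 28.5 CPM to 141 and 123 CPM, and ADAM9, a sheddase gene, from 108 and 104 CPM to 251 and 265 CPM. NSD3, a histone methyltransferase gene, went from 41.7 and 47.5 CPM to 108 and 128 CPM. The AfaR and parental libraries were well apart in each. The next tested genes on either side were not called, and the next above, IDO1, was uneven in parental cells, with 0.0475 and 7.69 CPM against 5.41 and 8.52 CPM in AfaR. Of the 19 genes, 18 were called higher than in ErlR, and in ErlR against parental none was called and the median was 0.00310. With 1 library left out, between 17 and 19 of them were called. This stretch was chosen after its values were seen. Its 19 genes are those called higher, so the further counts of calls among them follow in part from that choice.

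**Figure D4:**
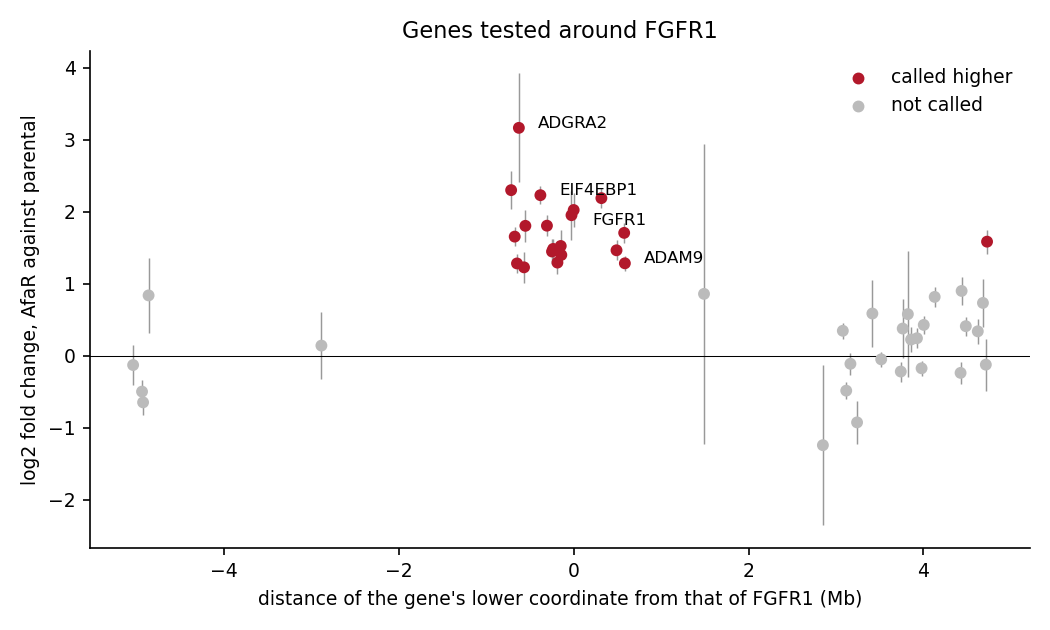
Log2 fold change in FaDu AfaR against parental, with its standard error as a bar, of each gene tested within 6 Mb of FGFR1, by the distance between lower coordinates in Mb. The 19 genes from ZNF703 to ADAM9 lie between 1.23 and 3.17, all called higher (red), and the genes beyond are mostly not called.

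Other chromosomes also differed in the share of genes called higher. It was 12.1% on chromosome 9, 11.0% on chromosome 8, 10.3% on chromosome 14 and 9.87% on chromosome 4, and was lowest on chromosome 19, at 3.10%. Among 262 stretches of 10 Mb with at least 20 genes tested, the highest median log2 fold change after the stretch with FGFR1 (1.26 over 36 genes) was on chromosome 9 between 60 and 70 Mb, at 1.22 over 20 genes of which 19 were positive. Further stretches of chromosome 9 came next, from 0 to 10 Mb at 0.754 (which holds CD274), from 80 to 90 Mb at 0.745, from 90 to 100 Mb at 0.731 (which holds FOXE1) and from 10 to 20 Mb at 0.68. A stretch of chromosome 16 between 10 and 20 Mb, which holds MPV17L, had a median of 0.66 over 67 genes. That of chromosome 14 between 90 and 100 Mb, which holds IFI27, had 0.44 over 65 genes. Chromosome 2 had the lowest median of the chromosomes, at -0.16.

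Downstream of the receptors, 2 of 30 tested genes of the RAS, PI3K and AKT pathway were called, both higher (6.67%, near the 6.39% of all genes). INPP4B, a phosphatase that removes a PI3K product, rose from 12.7 and 9.01 CPM to 20.6 and 25.0 CPM (log2 fold change 1.07). INPP4B lost its call without AfaR replicate 2 or parental replicate 2, with values from 0.84 to 1.33 over the 4 fits. The 28 genes that were not called lay between -0.32 and 0.71 and include BRAF (-0.03) and AKT1 (0.05).

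Of the 35 pathway lists, interferon-stimulated genes had the highest median, 1.04 over 52 tested genes, of which 50 had positive fold changes. These genes are switched on by type I and type III interferons through transcription factors bound to interferon-stimulated response elements. Of the 52, 6 were called higher (11.5%) and none lower, against 6.39% and 0.855% of all genes tested. The 2 AfaR libraries were far apart in many of the 52. Both AfaR libraries were above both parental libraries in 33 of the 52 genes (63.5%, against 32.7% of all genes tested). AfaR replicate 2 was above AfaR replicate 1 in 51, and parental replicate 2 above parental replicate 1 in 48. The summed level was 1794 and 2484 CPM in parental cells and 2776 and 4724 CPM in AfaR. The median was 1.48 with 19 genes called without AfaR replicate 1, 0.52 with 4 without AfaR replicate 2, 0.67 with 3 without parental replicate 1 and 1.54 with 6 without parental replicate 2. DESeq2 on the 4 libraries called 16 and edgeR without robust estimation 18.

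Besides IFI27, the called members were IFI6, ISG20, DHX58, IRF7 and IFI35. IFI6, an antiviral membrane protein gene (chr1:27666061-27672218), rose from 8.69 and 9.52 CPM to 40.8 and 58.5 CPM (log2 fold change 2.45, standard error 0.227, adjusted p = 0.000303). ISG20, an exonuclease gene, rose from 0.902 and 1.78 CPM to 5.31 and 11.5 CPM (log2 fold change 2.66, adjusted p = 0.00473), and IRF7, the factor that amplifies interferon production, from 4.51 and 5.35 CPM to 9.45 and 16.2 CPM (log2 fold change 1.38, adjusted p = 0.00753). Members with the widest spread were not called: MX1, an antiviral GTPase gene, had 11.5 and 12.6 CPM in parental cells and 27.8 and 125 CPM in AfaR (log2 fold change 2.66, adjusted p = 0.157), and OAS2, an oligoadenylate synthetase gene, had 3.70 and 5.30 CPM against 18.3 and 79.5 CPM (log2 fold change 3.45, adjusted p = 0.113). In both, each AfaR library was above both parental libraries. IFI27, IFI6 and ISG20 kept their calls with each library left out, while IRF7 lost its call without parental replicate 1 or AfaR replicate 2 (values from 0.94 to 1.71), and DHX58 without those or parental replicate 2 (values from 0.93 to 1.91). None of 18 tested interferon ligands, receptors and nucleic acid sensors was called, and 0 passed the test without the fold limit. Their median was 0.25 and their fold changes ran from -0.33 to 0.84, so edgeR could call none at the fold limit. DESeq2 called 0.

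**Figure D5:**
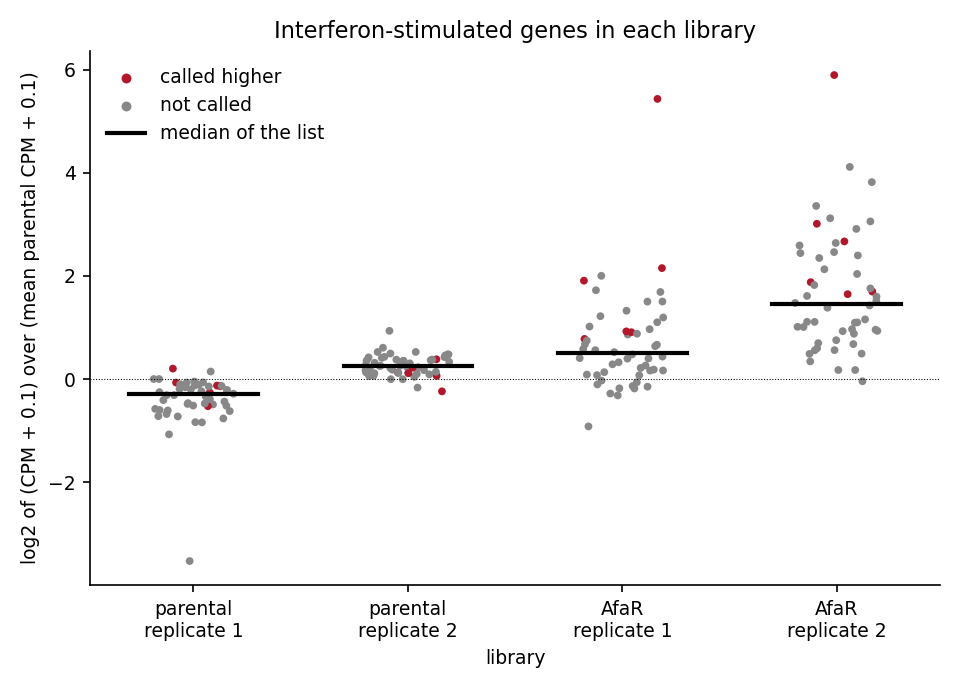
For each of the 52 tested interferon-stimulated genes, the log2 ratio of its CPM to its mean parental CPM (0.1 CPM added to both) in each of the 4 libraries, with the list's median as a black bar and the 6 called genes in red. The bar is lowest in parental replicate 1 and highest in AfaR replicate 2, and the points of AfaR replicate 2 spread the most.

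The promoters of the pair of interferon-stimulated genes with the firmest calls are shown because both hold the response element. They are RefSeq sequences on GRCh38.p14, the 250 bases before the start site, 5′ to 3′ on the gene's strand, with matches to GAAANNGAA on either strand in capitals. That of IFI27 is chr14:94110486-94110735 on the plus strand and that of IFI6 is chr1:27672193-27672442 on the minus strand.
IFI27: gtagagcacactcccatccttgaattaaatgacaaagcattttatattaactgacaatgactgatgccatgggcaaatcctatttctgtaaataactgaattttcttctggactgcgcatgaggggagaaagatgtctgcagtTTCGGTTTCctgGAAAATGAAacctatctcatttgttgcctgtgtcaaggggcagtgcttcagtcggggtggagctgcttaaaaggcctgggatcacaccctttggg
IFI6: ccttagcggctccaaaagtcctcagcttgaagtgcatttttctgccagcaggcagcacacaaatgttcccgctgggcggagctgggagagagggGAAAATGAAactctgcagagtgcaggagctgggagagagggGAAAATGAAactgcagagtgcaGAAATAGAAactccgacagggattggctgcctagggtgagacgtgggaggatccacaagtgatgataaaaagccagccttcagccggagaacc
The IFI27 window had 2 matches, which begin 107 and 95 bases before the start site, and the IFI6 window had 3, which begin 156, 115 and 93 bases before it. RefSeq windows (250 bases before to 50 after the start) matched 11142 of the genes tested. GAAANNGAA was found in 28 of the 41 windows of the interferon list, in 7.27% of the 674 windows of genes called higher, in 4.55% of the 66 of genes called lower and in 6.44% of all tested. The shares among genes called higher, called lower and all tested were 5.93%, 10.6% and 4.68% for the AP-1 motif TGANTCA, 7.86%, 6.06% and 6.34% for the STAT motif TTCNNNGAA, 13.4%, 18.2% and 15.2% for the antioxidant motif TGACNNNGC, and 11.4%, 12.1% and 10.9% for the TEAD motif GGAATG. Matches on both strands were counted, overlaps included, and the share of AP-1 matches among genes called lower rests on 7 windows. Within the interferon list, the 28 genes with a match had a median log2 fold change of 0.73 and the 13 without one 1.29.

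Many antigen presentation genes are inducible by interferon. Of 24 tested genes of MHC class I and II presentation, 3 were called higher (12.5%, against 6.39% of all genes tested) and none lower. Without the fold limit 8 passed the test, and 22 had positive fold changes, with a median of 0.69. TAP1, the peptide transporter of class I loading, rose from 40.2 and 57.5 CPM to 97.1 and 119 CPM (log2 fold change 1.14, adjusted p = 0.0135). CIITA, the class II transactivator gene, was called at a low level, from 0.332 and 0.204 CPM to 1.03 and 1.58 CPM (log2 fold change 2.26, adjusted p = 0.0235), and CD274, which encodes PD-L1, went from 5.37 and 7.89 CPM to 12.5 and 14.6 CPM (log2 fold change 1.03, adjusted p = 0.021). AfaR replicate 2 was above AfaR replicate 1 in 23 of the 24 genes. No member was called without AfaR replicate 2 (median 0.25) or without parental replicate 1 (median 0.87), and 7 were called without AfaR replicate 1 (median 1.08).

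Most lineage factors of squamous epithelium were not called, which does not show that they were unchanged, and a few differentiation genes were called lower. TP63, the master factor of stratified epithelium, had 181 and 160 CPM in parental cells and 169 and 189 CPM in AfaR (log2 fold change 0.07). KLF5, a zinc finger factor of epithelial growth (chr13:73054976-73077542), fell from 114 and 102 CPM to 38.2 and 40.4 CPM (log2 fold change -1.46, standard error 0.141, adjusted p = 0.000226), kept its call with each library left out and was lower than in ErlR by 1.04. Of the 23 tested factors of squamous lineage, KLF5 was the 1 called lower. FOXE1 (1.43) and NKX2-3 (2.13) were called higher, a share of 8.7% against 6.39% of all genes tested. FOXE1 lost its call without parental replicate 1 or AfaR replicate 2 (values from 1.21 to 1.61) and NKX2-3, at most 1.79 CPM in any of the 4 libraries, in each of the 4 fits (values from 1.53 to 3.07).

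Of 20 tested keratins, 1 was called, KRT23, which was lower and under 1 CPM in all 4 libraries. KRT23 (-2.70) lost its call without either parental library or AfaR replicate 2, with values from -4.03 to -1.94. KRT5, the basal keratin, was uneven within both groups, at 3688 and 6951 CPM in parental cells and 4160 and 8293 CPM in AfaR (log2 fold change 0.23, adjusted p = 0.792). KRT4 and KRT13, the keratins of mucosal suprabasal cells, had 76.1 and 114 CPM and 102 and 160 CPM in parental cells. In AfaR they had 0.470 and 13.9 CPM and 1.46 and 19.8 CPM, below both parental libraries but too far apart to be called (log2 fold changes of -3.69 and -3.60, adjusted p = 0.188 and 0.208). KRT8 and KRT18, keratins of simple epithelium, had log2 fold changes of -1.47 and -1.23 and were not called (adjusted p = 0.0971 and 0.058). Replicate 2 was above replicate 1 in 17 of the 20 keratins in AfaR and in 18 in parental cells. Of 25 tested genes of the cornified envelope and squamous differentiation, 4 were called lower (SCEL, KLK6, KLK5 and EMP1) and none higher. The share called lower was 16%, against 0.855% of all genes tested. EMP1, a membrane protein of differentiating keratinocytes, fell from 208 and 204 CPM to 84.5 and 102 CPM (log2 fold change -1.15, adjusted p = 0.0073), and KLK5, a protease of desquamation, from 161 and 156 CPM to 49.1 and 81.1 CPM (log2 fold change -1.28, adjusted p = 0.0124). Without parental replicate 1, none of the 4 was called, and without AfaR replicate 2 5 members were (list median -1.11, against -0.29 with all libraries).

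Of 35 tested genes of epithelial junctions, 2 were called, both higher, a share of 5.71% that lies near the 6.39% of all genes. PRSS8, encoding the protease prostasin, rose from 5.84 and 11.7 CPM to 33.6 and 52.0 CPM (log2 fold change 2.29, adjusted p = 0.01), and CGN, the tight junction protein cingulin, from 8.64 and 11.2 CPM to 22.1 and 22.5 CPM (log2 fold change 1.17, adjusted p = 0.00285, call lost without parental replicate 1 at 0.99). CDH1, encoding E-cadherin, had 196 and 217 CPM in parental cells and 291 and 375 CPM in AfaR (log2 fold change 0.69, standard error 0.141, adjusted p = 0.00963), higher in both AfaR libraries but under the fold limit. 

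Genes of epithelial-mesenchymal transition moved in both directions. Of 25 tested, 6 were called higher (CDH11, ACTA2, CDH2, SERPINE2, PDPN and TWIST1) and 2 lower (SPARC and SNAI1), with a median of 0.47. These were 24% and 8% of the list, against 6.39% and 0.855% of all genes tested. CDH2, encoding N-cadherin, rose from 13.9 and 20.4 CPM to 45.9 and 47.5 CPM (log2 fold change 1.45, standard error 0.299, adjusted p = 0.0204). ACTA2, encoding smooth muscle actin, rose from 1.90 and 1.88 CPM to 5.08 and 7.72 CPM (log2 fold change 1.76, adjusted p = 0.00404). VIM, the mesenchymal intermediate filament vimentin, had 20.3 and 16.7 CPM against 21.1 and 16.9 CPM (log2 fold change 0.04, adjusted p = 0.897), and ZEB1 was under 1 CPM in all 4 libraries. SNAI1, a repressor of E-cadherin, fell from 2.66 and 2.80 CPM to 1.18 and 1.23 CPM (log2 fold change -1.18), and SPARC, a matricellular protein gene, from 2.99 and 3.56 CPM to 1.65 and 0.990 CPM (log2 fold change -1.32). ACTA2 kept its call with each library left out. CDH2 kept it in 1 of the 4 fits (values from 1.19 to 1.74) and SNAI1 in none (values from -1.22 to -1.15). Without parental replicate 1, the list held 1 gene called higher and 0 lower.

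Among matrix genes, called members were more frequent than over all genes. Of 21 tested collagens, 7 were called higher (33.3%, against 6.39% of all genes tested) and none lower, and the median log2 fold change was 0.80. Both AfaR libraries were above both parental libraries in 14 of the 21 (66.7%, against 32.7% of all genes tested). COL6A2, a chain of microfibrillar collagen VI, rose from 6.13 and 5.70 CPM to 25.4 and 33.6 CPM (log2 fold change 2.32, standard error 0.238, adjusted p = 0.000333). COL4A1, a chain of basement membrane collagen IV, rose from 20.6 and 30.8 CPM to 69.9 and 71.5 CPM (log2 fold change 1.46, standard error 0.172, adjusted p = 0.00082), and its partner COL4A2, which shares its promoter region, from 73.2 and 102 CPM to 200 and 219 CPM (log2 fold change 1.26). COL8A1 and COL4A6 rose by 1.75 and 1.59. COL1A1, COL1A2 and COL3A1, the fibrillar collagens of fibroblasts, were at low counts and not called. With 1 library left out, between 4 and 10 collagens were called, fewest without parental replicate 1, and COL6A2, COL4A1 and COL8A1 in each fit.

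Of 33 tested matrix glycoproteins and proteoglycans, 6 were called higher (18.2%, against 6.39% of all genes tested) and none lower. Positive fold changes were seen in 30 (median 0.68). Of all genes from 1 to 5 CPM, 15.9% were called higher, and FBLN5, GPC4 and SDC2 averaged under 5 CPM in parental cells. FBLN5, the elastic fibre protein fibulin-5, rose from 1.71 and 2.95 CPM to 8.93 and 15.6 CPM (log2 fold change 2.40, standard error 0.352, adjusted p = 0.00238). The heparan sulfate proteoglycan genes GPC4 and SDC2 rose by 1.83 and 1.72. THBS1, thrombospondin-1, rose from 194 and 184 CPM to 368 and 472 CPM (log2 fold change 1.15, adjusted p = 0.000765, 0.96 without AfaR replicate 2). LOX, the collagen crosslinking oxidase gene, had 2.30 and 5.90 CPM in AfaR against 1.09 and 0.662 CPM (log2 fold change 2.22) and lost its call without AfaR replicate 2 or either parental library (values from 1.38 to 2.73). FN1, fibronectin, had a log2 fold change of 0.73 (adjusted p = 0.00952).

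The matrix proteases split. Of 23 tested genes of the MMP, ADAMTS and TIMP families and related proteases, 6 were called higher (26.1%) and 2 lower (8.7%), against 6.39% and 0.855% of all genes. MMP2, gelatinase A, rose from 1.23 and 2.65 CPM to 11.1 and 17.2 CPM (log2 fold change 2.87, standard error 0.365, adjusted p = 0.00129), and MMP14, the membrane protease that activates proMMP2, from 212 and 207 CPM to 414 and 470 CPM (log2 fold change 1.08, adjusted p = 0.0111). MMP10 fell from 13.2 and 11.6 CPM to 2.68 and 2.06 CPM (log2 fold change -2.39, standard error 0.325, adjusted p = 0.00155), and MMP7, matrilysin, from 4.23 and 4.63 CPM to 0.470 and 0.713 CPM (log2 fold change -2.88, standard error 0.385, adjusted p = 0.00134). MMP1 and MMP13, which neighbour MMP10 and MMP7 on chromosome 11, had log2 fold changes of -2.59 and -2.55 and were not called (adjusted p = 0.137 and 0.0535). MMP2, MMP10 and MMP7 kept their calls with each library left out. Of 22 tested integrins and laminins, LAMB2 (1.32) and ITGA1 (1.5) were called higher (9.09%, against 6.39% of all genes) and none lower. Their values ran from 0.95 to 1.61 and from 1.05 to 1.83 over the fits with 1 library left out. Neither kept its call without parental replicate 1 or AfaR replicate 2.

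Among developmental pathways, the shares of tested genes called higher were 6.06% for TGF-beta and BMP, 13.8% for WNT, 8.7% for NOTCH and 18.5% for YAP and TAZ targets, against 6.39% of all genes tested. In the TGF-beta and BMP pathway, 2 of 33 tested genes were called higher, the ligand genes TGFB2 (1.54) and BMP2 (1.07), and 2 lower, the BMP targets ID1 (-1.23) and ID3 (-1.11), with values over the fits with 1 library left out from 0.90 to 1.97, 0.72 to 1.35, -1.44 to -0.99 and -1.36 to -0.83. None of the 4 kept its call without AfaR replicate 2. In the WNT pathway, 4 of 29 were called higher and WNT10A lower. WNT5B, a ligand of the non-canonical branch, rose from 0.665 and 0.560 CPM to 2.68 and 6.46 CPM (log2 fold change 2.89, adjusted p = 0.0035), and DKK3, a secreted protein of the Dickkopf family, from 10.2 and 15.1 CPM to 51.2 and 51.7 CPM (log2 fold change 2.03, standard error 0.191, adjusted p = 0.000223). Both kept their calls with each library left out. In the NOTCH pathway, HEY2 and HEYL were called higher among 23 tested genes, at most 3.05 CPM in any of the 4 libraries, and both lost their calls in each fit with 1 library left out (values from 2.36 to 3.02 and from 0.99 to 1.33). Of 27 tested YAP and TAZ targets and partners, 5 were called higher and none lower, with RBMS3 the furthest, from 0.332 and 0.458 CPM to 2.77 and 4.6 CPM (log2 fold change 3.21, standard error 0.468, adjusted p = 0.00204). YAP1 itself passed the test without the fold limit in the other direction, from 193 and 208 CPM to 133 and 135 CPM (log2 fold change -0.58, adjusted p = 0.00682). With 1 library left out, between 1 and 4 of the list were called, fewest without AfaR replicate 2.

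Among 25 tested cytokines, chemokines and NF-kB feedback genes, 5 were called higher (20%) and 2 lower (8%), against 6.39% and 0.855% of all genes tested. IL6 rose from 0.190 and 0.407 CPM to 1.13 and 2.42 CPM (log2 fold change 2.57, adjusted p = 0.0182), and IL6R, its receptor, from 12.6 and 9.78 CPM to 28.2 and 24.1 CPM (log2 fold change 1.22, standard error 0.224, adjusted p = 0.00635). PTGS2, which encodes cyclooxygenase-2, rose from 0.902 and 1.78 CPM to 4.18 and 3.76 CPM (log2 fold change 1.57), below ErlR at 8.27 and 14 CPM. LIF, a ligand of gp130 as are IL6 and CLCF1, fell from 13.2 and 9.88 CPM to 4.8 and 4.52 CPM (log2 fold change -1.31, adjusted p = 0.0451). IL6R and IL1RN kept their calls with each library left out, whereas LIF lost its call in each of the 4 fits (values from -1.51 to -1.09), and IL6 without parental replicate 1 or AfaR replicate 2 (values from 1.91 to 3.19).

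Cell cycle genes had small negative fold changes. None of 32 tested mitotic genes was called. Of the list, 28 had negative fold changes, 8 passed the test without the fold limit, all lower, and the median was -0.24. CDC20, the activator of the anaphase-promoting complex, had 598 and 590 CPM in parental cells and 399 and 371 CPM in AfaR (log2 fold change -0.62, adjusted p = 0.004), and AURKA, the mitotic kinase, had 176 and 171 CPM against 118 and 149 CPM (log2 fold change -0.38, adjusted p = 0.0517). NEDD9, a scaffold that binds AURKA, had 2.28 and 3.82 CPM in parental cells and 6.11 and 18.1 CPM in AfaR, higher in both but not called (log2 fold change 1.99, adjusted p = 0.116). Of 30 tested genes of DNA replication and S phase, none was called, 28 had negative fold changes and 8 passed the test without the fold limit, all lower, with a median of -0.32. MCM7, a subunit of the replicative helicase, had 679 and 662 CPM against 356 and 417 CPM (log2 fold change -0.80, adjusted p = 0.0016). Fold changes of the replication list ran from -0.80 to 0.28, so edgeR could call none of its genes at the fold limit. With that limit, the unadjusted p was under 0.05 for 1 mitotic gene. DESeq2 on the 4 libraries called 1 mitotic and 0 replication genes. The mitotic gene with an unadjusted p under 0.05 was higher, since no fold change of that list was below -0.62. The highest fold change of the list was that of NEDD9. The medians are to be read beside the median of -0.20 over all genes above 100 CPM, and with ERCC scaling they were -0.06 and -0.14, where the median of all genes was 0.18. Of 21 tested G1 cyclins, CDK inhibitors and MYC family genes, CCND2 and MYCL were called higher (9.52%, against 6.39% of all genes tested) and none lower. MYCL (1.81) lost its call in 3 of the 4 fits with 1 library left out (values from 1.34 to 2.15). Per kilobase of exon, CCND1 was at 415 in parental cells and 257 in AfaR (RPKM).

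Among drug transporters, 4 of 21 tested ABC genes were called higher (19%, against 6.39% of all genes tested) and none lower. ABCB1, encoding the efflux pump P-glycoprotein (chr7:87503633-87713323), rose from 0.570 and 0.560 CPM to 5.27 and 5.78 CPM (log2 fold change 3.28, standard error 0.355, adjusted p = 0.000411). ABCG1, a cholesterol exporter gene, rose from 0.665 and 0.560 CPM to 3.71 and 3.41 CPM (log2 fold change 2.52, standard error 0.382, adjusted p = 0.00242). Both kept their calls with each library left out and were called higher than in ErlR, by 2.32 and 2.72. ABCA1 (1.47), a cholesterol exporter gene as well, lost its call without parental replicate 1 or AfaR replicate 2, with values from 1.22 to 1.75. ABCG2, another efflux pump gene, had 1.38 and 2.60 CPM against 2.82 and 3.01 CPM (log2 fold change 0.56, adjusted p = 0.327). Of 22 tested drug-metabolizing enzymes and AHR pathway genes, 4 were called higher (18.2%, against 6.39% of all genes tested) and none lower. They were CYP1A1 (2.81), EPHX2 (2.16), GSTM3 (1.73) and CYP1B1 (1.31), all at most 7.76 CPM in any of the 4 libraries. None kept its call without parental replicate 1 or AfaR replicate 2, with values of at least 2.39, 1.75, 1.21 and 1.07 over the fits with 1 library left out.

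In metabolism, SLC7A11, the cystine transporter, rose from 70.1 and 66.6 CPM to 189 and 138 CPM (log2 fold change 1.26, standard error 0.151, adjusted p = 0.00092) and kept its call with each library left out. It was 1 of 3 called among 26 tested NRF2 targets (11.5%, against 6.39% of all genes tested). The others were AKR1C1 (1.47) and AKR1C3 (1.15), from a family of similar paralogs whose reads may be split, and NQO1 differed by 0.03. AKR1C1 lost its call in each fit with 1 library left out (values from 1.15 to 1.80), and AKR1C3 without parental replicate 1 or AfaR replicate 2 (values from 1.01 to 1.29). Of 30 tested hypoxia and glycolysis genes, 3 were called higher (10%, against 6.39% of all genes tested) and none lower. EPAS1, encoding HIF-2 alpha, rose from 35.6 and 43.3 CPM to 84.6 and 106 CPM (log2 fold change 1.27, standard error 0.154, adjusted p = 0.000846), and ADM and EGLN3, both hypoxia targets, by 1.18 and 1.04. The glycolytic genes LDHA (-0.58, adjusted p = 0.00963) and GAPDH (-0.48, adjusted p = 0.0132) passed the test without the fold limit in the other direction. EPAS1 kept its call with each library left out, and ADM (values from 0.92 to 1.48) and EGLN3 (values from 0.92 to 1.15) did not without parental replicate 1 or AfaR replicate 2. Fold changes of 30 tested genes of cholesterol and fatty acid synthesis ran from -0.82 to 0.54, so edgeR could call none at the fold limit. In the test without that limit 2 passed, both lower, and DESeq2 called none of the 30. Their median of -0.37 became 0.05 without AfaR replicate 1 and -0.67 without AfaR replicate 2, where 3 were called lower.

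Of 24 tested neuronal and synaptic genes, 6 were called higher (25%, against 6.39% of all genes tested) and none lower. The list is of low level, with a sum of 87.3 and 94.7 CPM in parental cells and 120 and 120 CPM in AfaR. Of all genes from 1 to 5 CPM, 15.9% were called higher. NOS1 is described above, and NLGN1, the postsynaptic adhesion molecule neuroligin-1, rose from 0.665 and 1.38 CPM to 5.03 and 6.93 CPM (log2 fold change 2.56, standard error 0.388, adjusted p = 0.00245). Those 2 kept their calls with each library left out. NCAM1 (1.51), NCAM2 (2.14) and CNTNAP2 (1.56) were called in at most 1 of the 4 fits, with values of at least 1.37, 1.75 and 1.20. Of 34 tested HOX genes, HOXD13 (1.24) and HOXC5 (1.90) were called higher, a share of 5.88% that lies near that of all genes, with values of at least 0.98 and 1.44 and calls in 2 and 0 of the 4 fits. Of 25 tested genes of the BCL2 family and apoptosis, none was called and none passed the test without the fold limit. Of these 25, 3 had an unadjusted p under 0.05 past the fold limit and DESeq2 on the 4 libraries called 1. Of 22 tested p53 targets, TP53I3 was called higher (1.06), a share of 4.55%. It was not called without parental replicate 1 or AfaR replicate 2 (values from 0.69 to 1.52). Of 29 cancer-testis antigens, 4 were tested and none was called.

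Calls differed in how far they depended on a library. Of 116 called genes named by the rule, 44 were called with each library left out in turn and 0 changed sign. The call was lost without parental replicate 1 in 63, without AfaR replicate 2 in 60, without parental replicate 2 in 43 and without AfaR replicate 1 in 22. Such a fit has 2 residual degrees of freedom in place of 3.

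To see where AfaR differs from the other resistant FaDu population, the AfaR libraries were tested against the ErlR libraries. Of the genes tested, 661 were called higher in AfaR than in ErlR (4.38%) and 206 lower (1.36%), 76.2% of them higher. With ERCC scaling the split turned to 436 higher and 734 lower, 37.3% of them higher. ERCC spike-ins took 3.9532% and 4.6002% of all counts in the ErlR libraries, against 5.7377% and 5.6413% in AfaR. The ErlR libraries held 16408108 and 16383694 counts on genes, against 20156109 and 23399259 in AfaR. The part of these differences between libraries in the split was not tested. Of the 964 genes called higher against parental, 374 (38.8%) were also called higher against ErlR, and of the 129 called lower, 50 (38.8%) were also lower. Both comparisons use the same AfaR libraries, so these overlaps follow in part from the choice of genes. The ErlR mean lay between the parental and AfaR means for 737 of the 964 and 92 of the 129. These genes were chosen for a gap between parental and AfaR, which favours such a position, and the share over all genes was not computed. Among genes averaging at least 5 CPM, PADI3, a peptidylarginine deiminase gene, had the largest difference upward, with 17.1 and 40.6 CPM in AfaR against 2.11 and 2.41 CPM in ErlR (log2 difference 3.67), followed by IFI27 (3.31) and MPV17L (3.10). SCEL, the cornified envelope protein sciellin, TMPRSS11E and ADGRF4 were lower than in ErlR, by differences of -3.65, -2.94 and -2.95, and KLK6 by -3.03. Neither PADI3, TMPRSS11E nor ADGRF4 was called against parental. HMGN5 (0.95) and IGF2 (0.14) were not called against ErlR, where HMGN5 had 7.33 and 6.09 CPM. CCND2, LRIG1, FGFR1, ABCB1, COL6A2, MMP2 and DKK3 were called higher than in ErlR, by 1.76, 1.84, 1.39, 2.32, 2.84, 2.91 and 2.45, and SYT12, DUSP6 and WNT10A lower, by differences of -1.74, -1.62 and -2.58.

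The effect of afatinib resistance was also compared between the lines by an interaction term over all 12 libraries. Of 16240 genes tested, the effect in FaDu was called higher than in Cal27 for 1191 (7.33%) and lower for 764 (4.7%). CCND2 rose in FaDu and had a log2 fold change of -5.02 in Cal27, a difference of 7.48. LCP1, PYCARD and CDH1 had log2 fold changes of -1.15, -1.24 and -2.42 in Cal27, with differences of 5.10, 4.15 and 3.13, while IFI27 was at 2.97 there, with a difference of 2.76. FGFR1, MMP2 and VIM had log2 fold changes of 6.10, 6.80 and 5.74 in Cal27, with differences of -4.06, -3.90 and -5.68. Of the 19 genes of the stretch with FGFR1, 14 had a higher effect in FaDu and FGFR1 alone a lower one, and the median log2 fold change of the 19 in Cal27 AfaR was 0.04. DUSP5 (-0.64), KLF5 (0.39), ABCB1 (-1.12), COL6A2 (-0.76) and HMGN5 (1.39) did not pass this test, which does not show that their effects were alike. ABCB1 did not pass the filter on low counts in the Cal27 libraries alone.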

How the data were processed

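RNA was poly(A)-selected, spiked with ERCC transcripts and sequenced as paired ends. The authors deposited raw read counts per Ensembl gene, 1 table per library. The submitters' processing notes name Trimmomatic 0.36, STAR 2.5.2b, featureCounts, Subread 1.5.2 and GRCh38. The strand setting of the counting is not given in the sources used here, so antisense and overlapping genes cannot be told apart. The authors' normalized count tables were not used. Of 58051 genes and 92 ERCC rows, ERCC rows were left out of library sizes and tests.

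In R 4.3.3, the 6 FaDu libraries were fitted with edgeR 4.0.16 (filterByExpr, TMM, robust quasi-likelihood, biological coefficient of variation 14.5%), with 3 residual degrees of freedom, and contrasts were AfaR minus parental and AfaR minus ErlR. An interaction of line and resistance was fitted over 12 libraries. p-values were Benjamini-Hochberg adjusted over all genes tested and called under 0.05 with a log2 fold change over 1. The p-values measure the spread between these 2 replicates a group, which may be technical in part. CPM are TMM-normalized, RPKM are per exon length given in the deposited count tables, and fold changes are edgeR's fitted values. Alternatives, with DESeq2 1.42.0, glmTreat and ERCC scaling among them, are given in the closing section. The fits were tested on simulated data.

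Genes were named as the 12 largest rises and 12 largest falls among called genes averaging at least 5 CPM whose AfaR and parental libraries did not overlap. Also named were up to 5 called members in each direction of each list, family founders, and the 3 largest differences from ErlR and from Cal27 in each direction. The comparison, its members and its gene lists were chosen with earlier results of these data known, and further list members and the stretch around FGFR1 were picked after their values were seen. Some genes that the rule names are not reported here.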

Additional observations from a re-analysis of the deposited data

Results flagged for a closer look

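Of 141 genes named by the rule and considered here, the effect of afatinib resistance differed between FaDu and Cal27 for 50 by the interaction test (edgeR, adjusted p under 0.05 and a difference over 1), 33 with the higher effect in FaDu and 17 with the lower. Over all genes tested, 7.33% had the higher and 4.7% the lower effect in FaDu, and CCND2, CCL28, S100A9, ALPP and EEF1A2 were named for the size of this difference, so the share among named genes follows in part from the choice. The values below are the log2 fold change in FaDu minus that in Cal27. Among genes of growth and signalling, the difference was 7.48 for CCND2, 3.22 for MYCL, 1.99 for INPP4B, 1.91 for ERBB3, 1.65 for MYC, 1.25 for LRIG1 and 1.23 for EGFR. It was -4.06 for FGFR1, -4.04 for IGF2, -1.84 for CLCF1 and -1.31 for AXL.

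A higher effect in FaDu can come from a fall in Cal27. TP63 had log2 fold changes of 0.07 in FaDu and -3.41 in Cal27, KRT5 of 0.23 and -2.73, S100A9 of 0.52 and -6.05, and KLK5 of -1.28 and -2.87. Among epithelial genes, the difference was 6.59 for S100A9, 4.64 for PRSS8, 4.21 for PADI3, 3.50 for TP63, 3.13 for CDH1, 2.98 for KRT5, 2.62 for CGN and 1.61 for KLK5. Among genes of mesenchyme and matrix, it was -5.68 for VIM, -5.62 for ZEB1, -4.09 for SPARC, -3.90 for MMP2, -2.61 for COL8A1, -2.20 for TGFB1, -2.14 for SERPINE2 and -1.5 for ID3. It was 3.31 for PDPN, 2.83 for PXDN, 1.81 for THBS1, 1.73 for COL4A6 and 1.52 for COL4A1, and CDH2 (-0.12), CDH11 (-0.47) and ACTA2 (1.28) did not pass the test.

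In immune and inflammatory genes, the difference was 6.24 for CCL28, 5.10 for LCP1, 4.15 for PYCARD, 3.32 for IL6R, 2.76 for IFI27 and 2.66 for IL1RN. CCL28 was near the floor in FaDu, with 1 and 0 counts in parental cells and 10 and 26 in AfaR. In metabolism, hypoxia and transport, it was 2.67 for EGLN3, 2.57 for ABCG1, 2.04 for GSTM3, 1.61 for ADM, 1.01 for EPAS1 and -3.15 for CYP26B1. Other genes with a difference were NOS1 at 6.35, LBH at 2.71, ALPP at -6.58, EEF1A2 at -6.45, CPA4 at -5.09 and MYEOV at -2.15. NOS1 did not pass the filter on low counts in the Cal27 libraries alone, and its difference had a standard error of 1.38.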

How the results depend on the processing

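Against parental, 964 genes were called higher and 129 lower. A test against a 2-fold change (glmTreat) called 73 and 8, and no limit on the fold change gave 1598 and 1235. An unadjusted p under 0.05 gave 236 lower. With 1 library left out, between 275 and 942 were called higher and between 65 and 131 lower, with 598 and 84 without parental replicate 2, 275 and 65 without parental replicate 1, and 414 higher without AfaR replicate 2. Against ErlR, 661 higher and 206 lower became 44 and 19 under glmTreat, 436 and 734 with ERCC scaling, 1078 and 350 at an unadjusted p under 0.05, and 1288 and 1229 with no limit on the fold change. With 1 library left out they ranged from 271 to 712 and from 118 to 275, with 271 and 133 without AfaR replicate 2 and 310 and 118 without ErlR replicate 2. The 1955 genes whose effect differed between the lines became 621 under glmTreat and 3018 with no limit on the fold change. The other 67 values of these counts stayed within 1.5 times.

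ERCC scaling moved the median log2 fold change of all genes against parental by 0.18. DESeq2 on the 4 libraries called 817 higher and 115 lower and shared 738 and 96 with edgeR, and a filter of at least 10 counts in every library gave 733 and 91. edgeR without robust estimation, chosen after seeing the data, gave 978 and 144. Of 116 named called genes, 101 were called by DESeq2 on the 4 libraries, 112 with ERCC scaling and 23 under glmTreat.

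Replicate numbers were not treated as pairs in the main fit. In some lists replicate 2 was above replicate 1 in both groups. This held for 51 (AfaR) and 48 (parental) of 52 interferon-stimulated genes, and for 17 and 18 of 20 keratins. A correlation over all genes cannot decide whether the numbers pair the libraries for such lists. The correlation of same-numbered deviations was 0.164 between parental and AfaR, -0.106 between parental and ErlR and -0.120 between AfaR and ErlR. With the replicate block, 913 genes were called higher and 129 lower, sharing 884 and 114 with the fit without it, and 105 of the 116 named called genes were called. Calls were lost for SERPINE2 (adjusted p = 0.0925), AKR1C1 (0.0747), ETV4 (0.0709), LIF (0.0698), NKX2-3 (0.0672), ID1 (0.0601), TGFB2 (0.0587), HEYL (0.0568), TSLP (0.0559), SNAI1 (0.0506) and CDH2 (0.0505), and gained for PADI3 (0.00173), EEF1A2 (0.00787), KRT14 (0.0402) and ALPP (0.0448). Of the interferon-stimulated genes 7 were called, and 4 keratins were called lower. Against ErlR the block gave 614 higher and 180 lower.

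With 2 libraries a group and a coefficient of variation of 14.5%, small changes and genes under 1 CPM are measured least well.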
